A study of Mus musculus with 17 samples.

Results

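The common gamma chain family was described through 7 genes, 3 cytokines (Il2, Il7 and Il15) and 4 receptor chains (Il2rb, Il2rg, Il15ra and Il21r), in RNA from AB12 tumors, a mouse malignant mesothelioma grown in the peritoneum. The members were taken by symbol from Gencode vM21, and all 7 were found among the 55450 genes of the count table. The study followed the tumor microenvironment (TME) over time and asked how CTLA-4 blockade relates to it, by bulk RNA-seq of whole tumors. AB12 is an established mesothelioma cell line of BALB/c origin, and all mice were immune-competent BALB/c animals aged 8 weeks that received the same cells into the peritoneum. Untreated tumors were collected at d6 (early-phase, n = 3), d10 (intermediate-phase, n = 5) and d14 (advanced-phase, n = 3) after cell injection. Tumors of mice given anti CTLA-4 (clone 9D9, 200 µg per injection into the peritoneum) were collected at d10 (n = 3) and d14 (n = 3). The general antibody protocol, which the labels also give for these samples, was 4 injections over 2 weeks, but the treated d14 tumors are described in the study as an early treatment with injections on d6 and d10. The injection days of the treated d10 tumors are not given in the sources used here. Each of the 17 libraries came from a different mouse, all tumors derive from 1 cell line, and no isotype antibody group was analysed here.

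The common gamma chain, encoded by Il2rg, is the shared signaling subunit of the receptors for IL-2, IL-4, IL-7, IL-9, IL-15 and IL-21, and it signals through JAK3, while the partner chains signal through JAK1 and the complexes activate STAT transcription factors. The beta chain, encoded by Il2rb, serves both IL-2 and IL-15, and Il15ra encodes the chain on which myeloid and other cells present IL-15 to neighbouring lymphocytes. In tumors these cytokines are known for sustaining T cells and NK cells, IL-2 being made mainly by activated T cells, IL-7 by stromal cells and IL-15 by myeloid and stromal cells.

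Libraries held 46371577 to 96759833 counts each, with a median of 72413343, and levels below are TMM-normalized CPM over the 17 libraries unless RPKM is named. The mesothelial list of 6 genes, which includes Msln and Wt1, had no gene at 0 in any group and summed to between 1798 and 4182 CPM per library. The 7 T cell markers summed to 54.2 to 57.4 CPM at d6, 158 to 216 CPM in untreated d10 tumors, 63.7 to 109 CPM in untreated d14 tumors, 151 to 172 CPM in treated d10 tumors and 165 to 188 CPM in treated d14 tumors. Of 6 NK cell markers Klra8 was at 0 counts in every group, and the list summed to between 4.6 and 14.7 CPM. Levels of 782 pseudogenes and small RNA genes, which are sensitive to how a library was made and mapped, placed the libraries into 3 sets: d6 with untreated d10 replicates 1 to 3, treated d10 with untreated d10 replicates 4 and 5, and both d14 groups. Divided into 2 sets, d6 with untreated d10 replicates 1 to 3 stood against all others. The labels name no batch. The members' tests against untreated d10 tumors are therefore given with all 5 libraries. Where calls or values differ, many are also given with replicates 1 to 3 and with replicates 4 and 5, and some as a range over all alternatives. The comparison of untreated d14 with d6 crosses sets in both divisions, so that set and day cannot be told apart there, and untreated d14 tumors share a set with untreated d10 replicates 4 and 5 in the division into 2 sets but not in that into 3. Treated d14 tumors likewise share a set with treated d10 tumors and untreated d10 replicates 4 and 5 only in the division into 2. Transcripts of pancreas acinar cells (5 genes) summed to 2755 and 927 CPM in treated d14 replicates 1 and 3, to 1.22 CPM in treated d14 replicate 2 and to at most 0.324 CPM in every other library. In bulk tumor RNA, fewer cells of a type and less RNA per cell cannot be told apart.

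Per kilobase of merged exons (RPKM), which allows levels of different genes to be compared, the 4 receptor chains stood above the 3 cytokines in every group, except that Il15 stood above Il21r at d6. At d6 the order of mean levels was Il2rg at 26.8 ± 1.74 RPKM (SD, n = 3), Il2rb at 9.88 ± 0.186, Il15ra at 8.43 ± 1.53, Il15 at 7.50 ± 2.53, Il21r at 5.74 ± 0.257, Il7 at 1.10 ± 0.102 and Il2 at 0.537 ± 0.252 RPKM. The SD ranges of Il2rb, Il15ra and Il15 overlapped, and so did those of Il15 and Il21r. In untreated d10 tumors Il2rb at 25.4 ± 8.01 RPKM and Il2rg at 21.7 ± 5.11 RPKM (n = 5) stood first with overlapping ranges, followed by Il21r at 10.6 ± 2.35 RPKM. The order of the first pair differed within this group, with Il2rb at 17.7 to 23.9 and Il2rg at 22.5 to 27.8 RPKM in replicates 1 to 3, and Il2rb at 32.1 and 35.1 and Il2rg at 18.03 and 15.25 RPKM in replicates 4 and 5. In untreated d14 tumors the same pair stood at 12.2 ± 3.87 and 9.35 ± 2.06 RPKM (n = 3), again overlapping. In treated tumors Il2rb stood above Il2rg without overlap of the SD ranges. The values were 33.4 ± 4.57 against 14.6 ± 0.476 RPKM at d10 and 24.3 ± 2.0 against 16.9 ± 1.03 RPKM at d14. Il2rg shares 728 of its 2387 exon bases with another gene model, Gm20489, which had 0 counts. If reads in that stretch were not counted, the RPKM of Il2rg is too low, so its order against Il2rb is uncertain. Il7 and Il2 were the lowest members in all 5 groups.

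**Figure D1:**
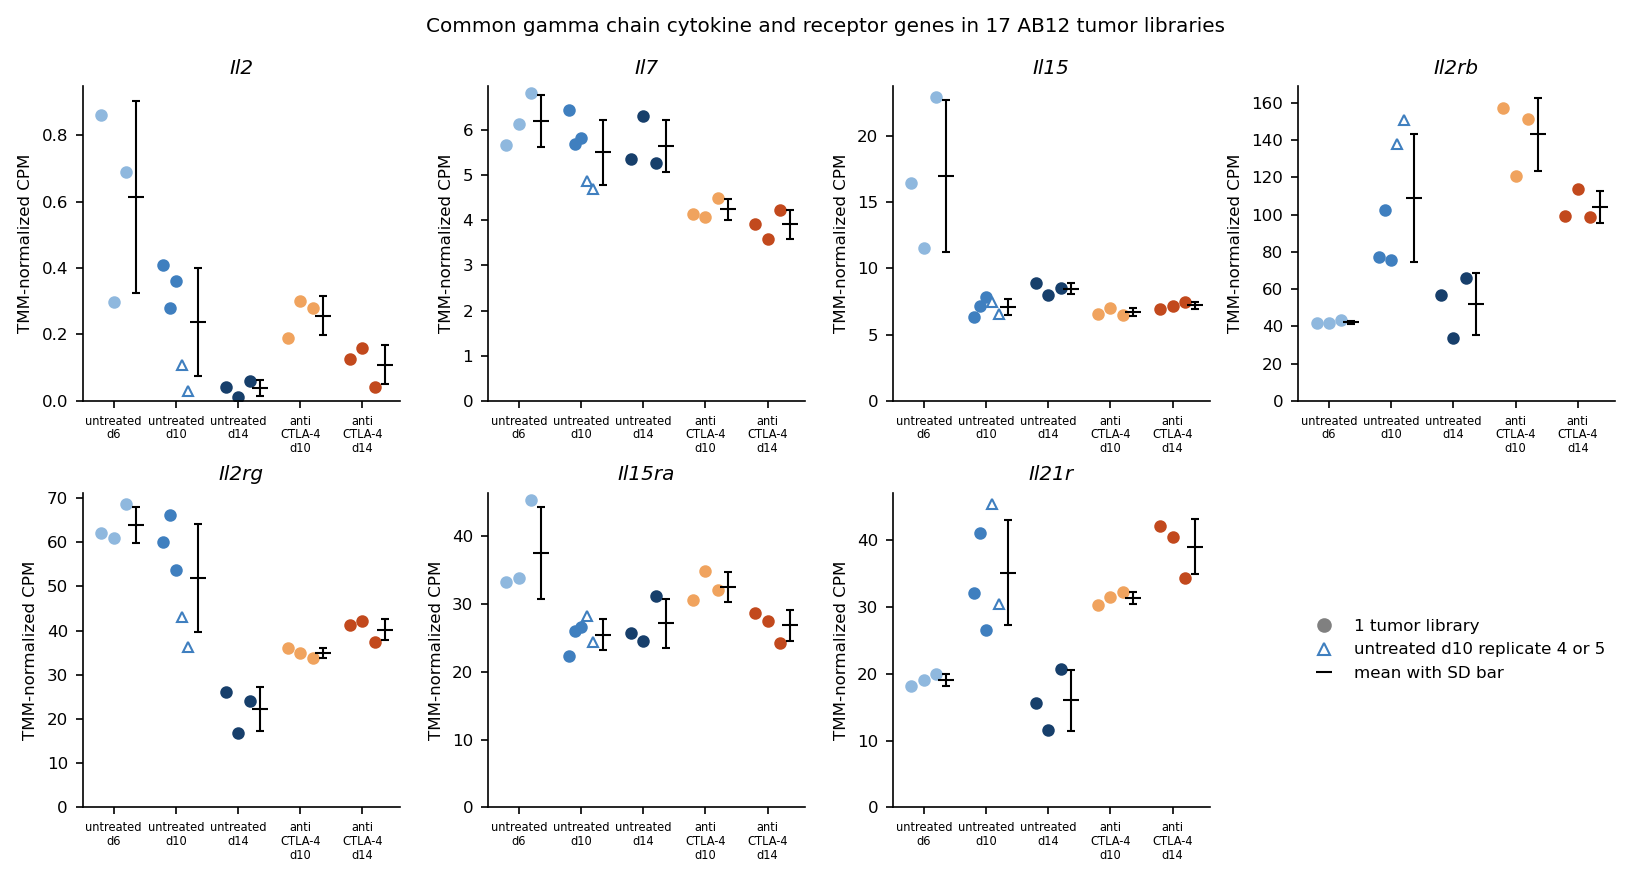
TMM-normalized CPM (linear axis from 0) of the 7 members in each of 17 tumor libraries, by group, with the group mean and its SD; open triangles are untreated d10 replicates 4 and 5. Il15 was highest in the 3 d6 libraries, Il2rb was between 41.7 and 43.2 CPM there and at 75.7 CPM or more in every untreated d10 library, and Il2rg was lowest in the 3 untreated d14 libraries.

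Il2 (GRCm38 chr3:37120523-37125959, minus strand, 4 merged exons) encodes the T cell growth factor IL-2. It had 39, 15 and 34 counts in the d6 libraries, 24, 18, 19, 9 and 2 counts in untreated d10 replicates 1 to 5, 3, 1 and 6 counts in untreated d14 libraries, 16, 20 and 19 counts in treated d10 libraries and 13, 15 and 4 counts in treated d14 libraries. The d6 libraries were thus the highest as a group and the untreated d14 libraries were all below them, while untreated d10 replicates 4 and 5 lay below replicates 1 to 3. As CPM the group means were 0.615 ± 0.289 at d6 (SD, n = 3), 0.238 ± 0.163 in untreated d10 tumors (n = 5), 0.0379 ± 0.0237 in untreated d14 tumors (n = 3), 0.257 ± 0.0591 in treated d10 tumors (n = 3) and 0.109 ± 0.0593 in treated d14 tumors (n = 3). At such counts 1 read moves a value visibly, and every statement on Il2 is limited by depth.

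Il7 (GRCm38 chr3:7569994-7613760, minus strand, 9 merged exons) encodes IL-7, a survival factor of naive and memory T cells. It was between 5.67 and 6.82 CPM in d6 libraries, 4.70 and 6.45 CPM in untreated d10 libraries, 5.26 and 6.30 CPM in untreated d14 libraries, 4.08 and 4.50 CPM in treated d10 libraries and 3.59 and 4.22 CPM in treated d14 libraries. After TMM scaling all 6 treated libraries lay below all 11 untreated ones, of which untreated d10 replicates 4 and 5 were the lowest. Without TMM factors the 2 sides overlapped. Treated d14 replicate 3, with 392 of 85930855 counts, then stood above untreated d10 replicate 5, with 304 of 69441918. Il7 shares 105 bases of exon with an antisense gene on the plus strand, Gm16685, which had 55 to 227 counts, and since the sources used here do not say whether counting used strand, reads of the 2 genes cannot be told apart in that stretch.

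Il15 (GRCm38 chr8:82331632-82403222, minus strand, 11 merged exons) encodes IL-15, which sustains NK cells and memory CD8 T cells. It stood at 16.45, 11.50 and 22.91 CPM in the 3 d6 libraries. Every later library, treated or not, lay between 6.32 and 8.87 CPM, so that d6 did not overlap with any other group. The d6 libraries were also those with the highest type I interferon response, a list of 19 genes that summed to 5913, 7904 and 10590 CPM (lowest, middle and highest) at d6 and to between 1283 and 2340 CPM in all other libraries.

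Il2rb (GRCm38 chr15:78479256-78495271, minus strand, 11 merged exons), the beta chain for IL-2 and IL-15, stood at 41.7, 42.1 and 43.2 CPM at d6. In untreated d10 replicates 1 to 5 it was at 77.2, 102, 75.7, 138 and 151 CPM, and in untreated d14 tumors at 56.9, 33.7 and 65.9 CPM. Treated tumors held 157, 121 and 151 CPM at d10 and 99.3, 114 and 99.0 CPM at d14. The highest values were those of treated d10 tumors and of untreated d10 replicates 4 and 5, and untreated d14 replicate 2 lay below the d6 libraries.

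Il2rg (GRCm38 chrX:101264378-101268255, minus strand, 6 merged exons), the shared gamma chain, stood at 62.1, 61.0 and 68.7 CPM at d6 and at 60.2, 66.2, 53.6, 43.1 and 36.4 CPM in untreated d10 replicates 1 to 5. Untreated d14 tumors had 26.1, 16.7 and 24.2 CPM, below every other library. Treated tumors had 36.02, 34.93 and 33.75 CPM at d10 and 41.2, 42.1 and 37.5 CPM at d14, between the untreated d14 and d6 levels. The gene shares 728 bases of exon with the protein-coding model Gm20489 on the same strand, which had 0 counts in all 17 libraries, and how reads in the shared stretch were assigned is not given in the sources used here.

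Il21r (GRCm38 chr7:125603429-125633570, plus strand, 9 merged exons) encodes the receptor chain that binds IL-21, a helper T cell cytokine. It stood at 18.25, 19.05 and 19.96 CPM at d6, at 32.1, 41.0, 26.6, 45.5 and 30.5 CPM in untreated d10 replicates 1 to 5 and at 15.7, 11.6 and 20.8 CPM in untreated d14 tumors. Treated tumors had 30.4, 31.5 and 32.2 CPM at d10 and 42.2, 40.5 and 34.4 CPM at d14. Untreated d10 and both treated groups lay above all d6 and untreated d14 libraries.

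Il15ra (GRCm38 chr2:11705290-11734317, plus strand, 8 merged exons) stood at 33.3, 33.9 and 45.3 CPM at d6. Its other values were 22.3 to 28.2 CPM in untreated d10 tumors, 24.5 to 31.3 CPM in untreated d14 tumors, 30.6 to 34.9 CPM in treated d10 tumors and 24.3 to 28.7 CPM in treated d14 tumors. It varied least over the groups among the 4 receptor chains, with group means between 25.5 and 37.5 CPM.

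The 250 bases before the RefSeq start site are shown for Il2rg and Il21r, the 2 members called in the test of the difference between treatment effects below. Capitals mark matches to the motifs searched on both strands, which were the STAT motif TTCNNNGAA, the interferon response motif (a pair of GAAA with any 2 bases between), the AP-1 motif TGANTCA and the ETS motif ACCGGAAG. Sequences are from RefSeq on GRCm38.p6.
Il2rg, chrX:101268256-101268505, minus strand: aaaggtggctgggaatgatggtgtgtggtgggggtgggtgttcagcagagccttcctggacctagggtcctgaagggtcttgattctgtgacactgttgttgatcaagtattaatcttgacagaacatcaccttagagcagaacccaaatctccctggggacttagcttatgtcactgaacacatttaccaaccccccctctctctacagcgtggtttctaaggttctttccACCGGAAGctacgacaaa
Il21r, chr7:125603179-125603428, plus strand: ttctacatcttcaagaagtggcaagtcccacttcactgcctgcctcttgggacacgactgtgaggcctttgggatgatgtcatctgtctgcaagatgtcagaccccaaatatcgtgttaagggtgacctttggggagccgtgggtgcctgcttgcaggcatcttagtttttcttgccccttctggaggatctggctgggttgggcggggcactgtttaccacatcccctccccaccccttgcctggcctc
The Il2rg window held the ETS letters at positions -18 to -11 from the start site, and 1.72% of 32851 windows of this length held them. None of the 4 motifs was found in the Il21r window. Of 2 Il15ra windows, 1 held TGAGTCA at -30 to -24 from its start site, and 6.75% of all windows held the AP-1 motif. The STAT and interferon response letters occurred in 7.02% and 2.98% of all windows and in none of the windows of Il2, Il2rg, Il21r and Il15ra, which says only that these letters are absent from these stretches.

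From d6 to d10 in untreated tumors the family moved in both directions: the beta chain Il2rb rose and the cytokine Il15 fell. Il2rb rose from 42.3 ± 0.798 CPM (SD, n = 3) to 109 ± 34.4 CPM (n = 5), a log2 fold change of 1.35 ± 0.23 (SE, adjusted p = 0.0038, edgeR's quasi-likelihood test with Benjamini-Hochberg adjustment over all tested genes). Il15 fell from 16.95 ± 5.72 to 7.05 ± 0.607 CPM, by 1.27 ± 0.20 on the log2 scale (adjusted p = 0.0027). A gene was called when its adjusted p was below 0.05 and its fold above 2, and 2 of 7 members were called where 7.45% of all 16866 tested genes were. Il21r at a log2 fold change of 0.87 ± 0.17 (adjusted p = 0.0070) and Il15ra at -0.56 ± 0.13 (adjusted p = 0.015) passed the p threshold below that fold. Their groups did not overlap, but the share of all tested genes that separate in this way was not counted. Il2 at -1.38 ± 0.64, Il2rg at -0.30 ± 0.19 and Il7 at -0.17 ± 0.17 did not pass (adjusted p between 0.17 and 0.50). The median of the 7 log2 fold changes was -0.30, against 0.03 for all tested genes.

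With untreated d10 replicates 1 to 3, which share the library set of d6, the log2 fold changes were 1.02 for Il2rb (adjusted p = 0.00033) and -1.24 for Il15 (adjusted p = 0.0034). With replicates 4 and 5 they were 1.72 and -1.32, and Il2 was called as well, at -3.08 (adjusted p = 0.0065). Il2rg was not stable in this comparison. It ran from -0.41 to -0.19 over left-out libraries and from -0.74 to -0.07 over all alternatives. Its adjusted p, by edgeR or DESeq2, then lay between 0.0012 and 0.66, always at under 2-fold. Il15 was not called without d6 replicate 3, at -0.99 (adjusted p = 0.014). All 7 T cell markers passed the p threshold upward and 5 were called higher, with a median log2 fold change of 1.42, and of the 19 type I interferon genes 17 were called lower, with a median of -2.35. The part of these shifts in the values of Il2rb and Il15 was not tested.

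From d10 to d14 in untreated tumors 3 receptor chains fell, Il2rg, Il21r and Il2rb. Il2rg fell from 51.9 ± 12.2 CPM (n = 5) to 22.3 ± 4.92 CPM (n = 3), by 1.21 ± 0.22 on the log2 scale (adjusted p = 0.0093, edgeR). Il21r fell from 35.1 ± 7.81 to 16.0 ± 4.57 CPM, by 1.12 ± 0.22 (adjusted p = 0.011), and Il2rb from 109 ± 34.4 to 52.2 ± 16.6 CPM, by 1.05 ± 0.28 (adjusted p = 0.030). The groups did not overlap for any of these, nor for Il15, which was not called, and how many of all tested genes separate like this was not counted. Thus 3 of 7 members were called lower, where 3.45% of 17659 tested genes were called lower and 7.23% in either direction. Il2 at -2.53 ± 0.83 (adjusted p = 0.058), Il15 at 0.27 ± 0.13, Il15ra at 0.10 ± 0.12 and Il7 at 0.04 ± 0.17 were not called, and DESeq2 called 4 members, adding Il2 at -2.62 (adjusted p = 0.023). The members' median was -1.05, against -0.04 for all tested genes.

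No call remained without untreated d14 replicate 2, the library with the lowest level of all 3 chains: the log2 fold changes were then -1.05 for Il2rg, -0.94 for Il21r and -0.82 for Il2rb (adjusted p between 0.053 and 0.13). The Il2rb call was also lost without TMM factors (-0.97), with protein-coding genes only (-0.99), without untreated d14 replicate 1 at -1.12 (adjusted p = 0.078) and without untreated d10 replicate 2, 4 or 5 at -1.06, -0.96 and -0.90 (adjusted p = 0.055, 0.042 and 0.042). Il2 was called without untreated d10 replicate 4 or 5, at -2.73 and -2.82 (adjusted p = 0.043 and 0.020). Against untreated d10 replicates 1 to 3 Il2rg, Il21r and Il2 were called at -1.43, -1.06 and -3.10 and Il2rb was not, at -0.71 (adjusted p = 0.037). Against replicates 4 and 5 Il21r and Il2rb were called at -1.21 and -1.44 and Il2rg was not, at -0.80 (adjusted p = 0.022), and this is the d10 to d14 step that lies within 1 set of the division into 2. Beside these falls, 4 of 7 T cell markers, 2 of 7 macrophage markers and 2 of 4 tested NK cell markers were called lower, and macrophage markers summed to 594 to 828 CPM in untreated d14 tumors against 1136 to 1757 CPM in untreated d10 tumors. The part of these markers in the receptor values was not tested.

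Over the whole untreated course, d14 against d6, Il2rg and Il2 fell, in a comparison where day and library set cannot be told apart. Il2rg went from 63.9 ± 4.15 to 22.3 ± 4.92 CPM (n = 3 each), a fall of 1.52 ± 0.15 on the log2 scale (adjusted p = 0.00011, edgeR). Il2 fell by 3.90 ± 0.58 (adjusted p = 0.00072), a 14.9-fold difference that rests on the 3, 1 and 6 counts of the d14 libraries. In this comparison 2 of 7 members were called lower, where 8.81% of 17172 tested genes were called lower and 19.0% in either direction. Il15 at -0.9998 ± 0.22 (adjusted p = 0.0051) missed the fold threshold narrowly, being called at -1.02 without d6 replicate 1 or d14 replicate 1 and at -1.22 without d6 replicate 2 (adjusted p = 0.018, 0.016 and 0.0012), and Il15ra at -0.46 ± 0.14 (adjusted p = 0.023) clearly, while Il2rb at 0.30 ± 0.20, Il21r at -0.25 ± 0.18 and Il7 at -0.13 ± 0.16 did not pass the p threshold. The beta and gamma chains therefore ended in different places: Il2rb at d14 overlapped with d6, whereas Il2rg lay below it in each of the 3 libraries. The members' median was -0.46, against 0.01 for all tested genes.

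**Figure D2:**
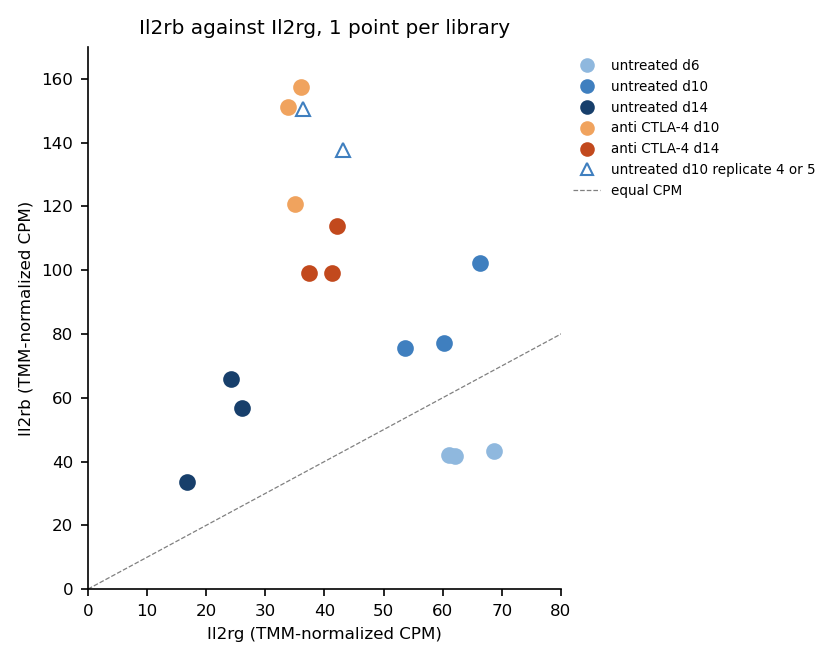
Il2rb against Il2rg in TMM-normalized CPM (linear axes), 1 point per tumor library coloured by group; the dashed line marks equal CPM. The 3 d6 libraries lie below the line, all 14 others lie above it, and untreated d10 replicates 4 and 5 lie beside the treated d10 libraries. CPM does not account for exon length, which is 4287 bases for Il2rb and 2387 for Il2rg. Per kilobase, Il2rb stood below Il2rg in untreated d10 replicates 1 to 3 too.

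The balance between the 2 chains, given as log2 of Il2rb CPM over Il2rg CPM within a library, is independent of the scaling between libraries. It was -0.59 ± 0.07 at d6 (SD, n = 3), 0.49 ± 0.13 in untreated d10 replicates 1 to 3, 1.68 and 2.05 in untreated d10 replicates 4 and 5, and 1.19 ± 0.23 in untreated d14 tumors. It stood at 2.03 ± 0.21 in treated d10 and 1.37 ± 0.09 in treated d14 tumors. Treated d10 libraries thus overlapped with untreated d10 replicates 4 and 5 and lay above replicates 1 to 3, and the treated and untreated d14 ranges, 1.27 to 1.44 and 1.01 to 1.45, overlapped. These ratios describe the libraries, with no test. Being CPM without exon length, they compare libraries with each other and do not show which chain is the higher.

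At d14 the comparison of treated with untreated tumors asked how CTLA-4 blockade goes with the advanced-phase TME, and here Il21r and Il2rb were higher in treated tumors. Il21r rose from 16.0 ± 4.57 to 39.0 ± 4.11 CPM (n = 3 each), a log2 fold change of 1.35 ± 0.20 (adjusted p = 0.0058, edgeR). Il2rb rose from 52.2 ± 16.6 to 104 ± 8.56 CPM, by 1.06 ± 0.22 (adjusted p = 0.013). Il2rg stood at 40.3 ± 2.46 CPM in treated against 22.3 ± 4.92 CPM in untreated tumors, a log2 fold change of 0.91 ± 0.16 (adjusted p = 0.0078) just under the fold threshold. Leaving out untreated d14 replicate 1, untreated d14 replicate 3 or treated d14 replicate 3 put Il2rg over it, at 1.04, 1.01 and 1.01 (adjusted p = 0.022, 0.0057 and 0.013). For all 3 chains every treated library lay above every untreated one. Il7 and Il15 did not overlap either, with the treated libraries lower, and how many of all tested genes separate like this was not counted. Among the 6 members that passed the filter on low counts, 2 were called higher, where 9.07% of 18062 tested genes were called higher and 11.5% in either direction. Il2 did not pass that filter.

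The cytokines and Il15ra showed no called difference at d14. Il7 had a log2 fold change of -0.46 ± 0.14 (adjusted p = 0.042), Il15 of -0.17 ± 0.11 (adjusted p = 0.28) and Il15ra of 0.05 ± 0.11 (adjusted p = 0.76). The 6 members' median was 0.48, against -0.004 for all tested genes. Without untreated d14 replicate 2, Il21r was the 1 member still called and Il2rb had 0.81 (adjusted p = 0.0077). With treated d14 replicate 2 alone, the treated library nearly free of pancreas transcripts, the log2 fold changes were 1.42 for Il21r, 1.20 for Il2rb and 0.99 for Il2rg. None was called in that fit, in which the lone library was assumed to vary like the untreated ones. Along with these chains 4 of 7 T cell markers and 4 of 7 macrophage markers were called higher, with median log2 fold changes of 1.16 and 1.03. Macrophage markers summed to 1227 to 1513 CPM in treated against 594 to 828 CPM in untreated d14 tumors. Their part in the receptor values was not tested.

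**Figure D3:**
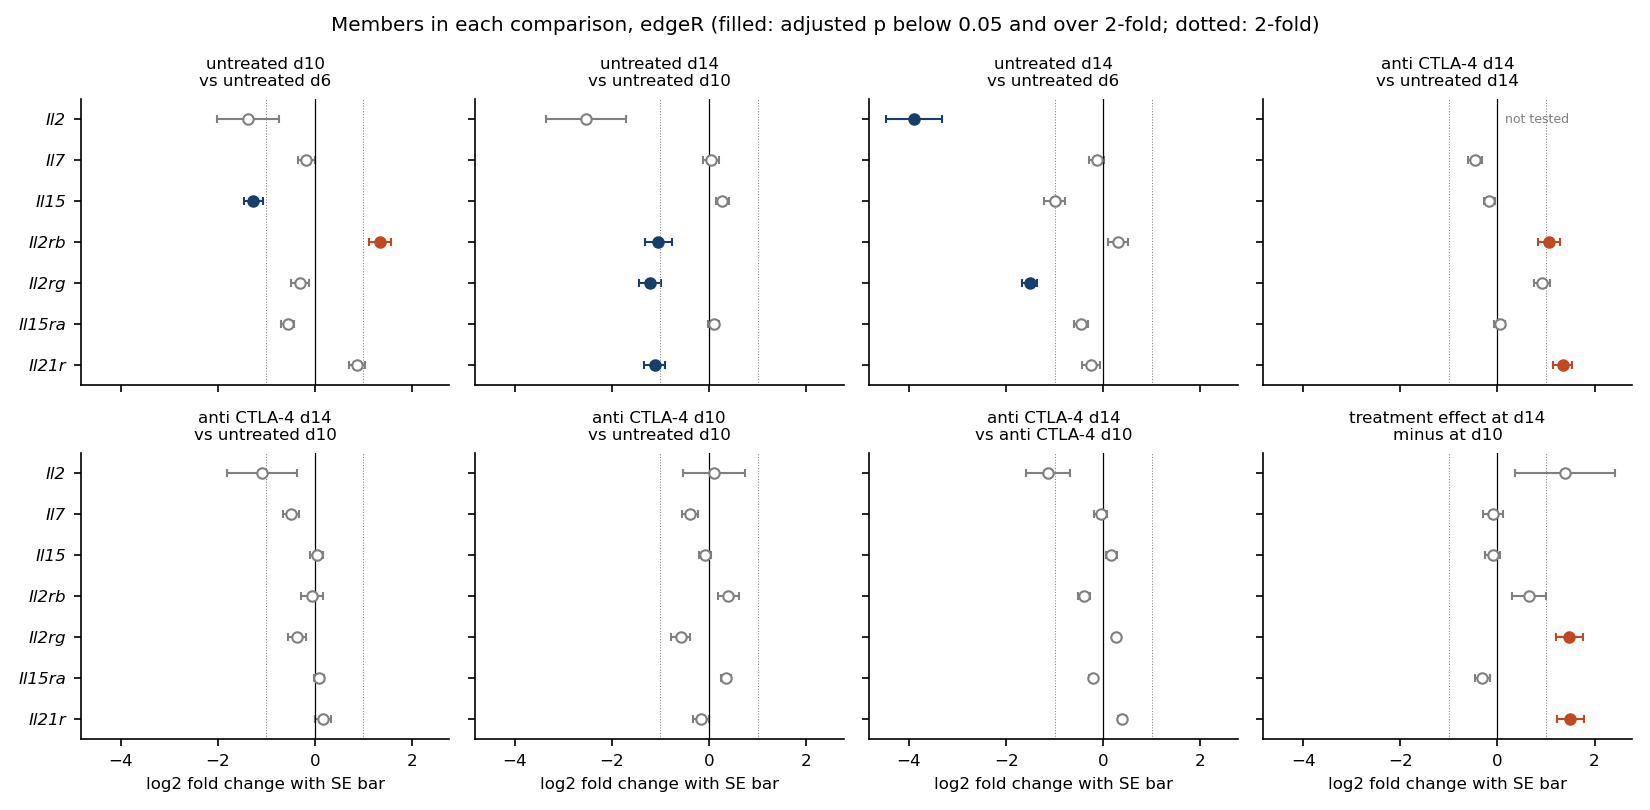
Log2 fold change with its SE for each member in the 7 comparisons of 2 groups and in the test of the difference between treatment effects; filled points were called (adjusted p below 0.05 and over 2-fold), dotted lines mark 2-fold. Receptor chains account for the calls at d14, with Il2 called in untreated d14 against d6.

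At d10, no member was called between treated and untreated tumors by edgeR's test (0 of 7), and 0.0174% of 17258 tested genes were. DESeq2 called 0 members as well, and 3 had an unadjusted p under 0.05. Il2rb stood at 143 ± 19.6 CPM in treated (n = 3) and 109 ± 34.4 CPM in untreated tumors (n = 5), a log2 fold change of 0.40 ± 0.22 (adjusted p = 0.45), and Il2rg at 34.9 ± 1.14 and 51.9 ± 12.2 CPM, a log2 fold change of -0.58 ± 0.19 (adjusted p = 0.29). The values for these 2 chains depended on which untreated libraries were used. Against replicates 1 to 3, log2 fold changes were 0.74 for Il2rb (adjusted p = 0.0050) and -0.80 for Il2rg (adjusted p = 0.00075), both under 2-fold. Against replicates 4 and 5, from the same library set as the treated d10 tumors, they were 0.01 and -0.16 (adjusted p = 0.96 and 0.40). Il15ra was at 0.35 ± 0.10, Il7 at -0.38 ± 0.16, Il21r at -0.17 ± 0.16, Il15 at -0.08 ± 0.13 and Il2 at 0.11 ± 0.64 with all 5 libraries. Il2 and Il7 were not stable either. Against replicates 1 to 3 Il2 had -0.48, and over all alternatives it ran from -0.48 to 1.80. Il7 ran from -0.52 to -0.15, and neither gene was called in any alternative. The members' median was -0.08, against -0.01 for all tested genes.

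Whether the treatment difference itself changed from d10 to d14 was tested by the interaction contrast, and it did for Il21r and Il2rg. The log2 fold change between treated and untreated tumors was larger at d14 than at d10 by 1.504 ± 0.27 for Il21r (adjusted p = 0.0043, edgeR) and by 1.48 ± 0.28 for Il2rg (adjusted p = 0.0049). Thus 2 of 7 members were called higher, where 9.67% of 18574 tested genes were called higher and 11.8% in either direction. With untreated d10 replicates 4 and 5 as the d10 controls, so that each treatment difference stayed within 1 library set, the values were 1.60 for Il21r (adjusted p = 0.0061) and 1.07 for Il2rg (adjusted p = 0.0074), and Il2rb was then called too, at 1.04 (adjusted p = 0.025). With replicates 1 to 3 they were 1.45 and 1.71, with Il2rb at 0.32, and Il2 was called at 1.98 (adjusted p = 0.044). With all libraries Il2rb stood at 0.65 ± 0.35 (adjusted p = 0.21), Il2 at 1.40 ± 1.03, Il15ra at -0.31 ± 0.15, Il15 at -0.10 ± 0.16 and Il7 at -0.09 ± 0.21. Of the T cell markers, 5 of 7 were called higher in the same contrast, and of the macrophage markers 4 of 7.

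Treated d14 tumors were also set against untreated d10 tumors, the preceding untreated time point, and no member was called by edgeR (0 of 7, where 7.83% of 18057 tested genes were). Il21r stood at 39.0 ± 4.11 against 35.1 ± 7.81 CPM, Il2rb at 104 ± 8.56 against 109 ± 34.4 CPM and Il2rg at 40.3 ± 2.46 against 51.9 ± 12.2 CPM, with log2 fold changes of 0.16 ± 0.17, -0.05 ± 0.22 and -0.36 ± 0.19. Il7 had -0.49 ± 0.16 (adjusted p = 0.049) and Il2 -1.08 ± 0.72. DESeq2 called 0 members, and 1 had an unadjusted p under 0.05. Against untreated d10 replicates 1 to 3 alone, Il2 was called lower at -1.66 (adjusted p = 0.011), and against replicates 4 and 5 it had 0.64 (adjusted p = 0.51). Il2rg had -0.58 (adjusted p = 0.0012) against replicates 1 to 3 and 0.07 (adjusted p = 0.57) against replicates 4 and 5, Il2rb 0.29 (adjusted p = 0.082) and -0.42 (adjusted p = 0.015), and Il21r 0.23 and 0.09. This comparison shares its controls with the others of untreated d10 tumors.

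Within the treated tumors, d14 against d10, no member was called by edgeR either (0 of 7, where 11.5% of 17791 tested genes were), and DESeq2 called 0. These 2 groups lie in different sets in the division into 3, where set and day cannot be told apart. An unadjusted p under 0.05 was given for 5 members. Il21r at 0.38 ± 0.09 (adjusted p = 0.0068), Il2rg at 0.27 ± 0.08 (adjusted p = 0.018) and Il2rb at -0.40 ± 0.11 (adjusted p = 0.020) passed the p threshold with folds of 1.30, 1.21 and 1.31. The 2 groups did not overlap in any of these 3 chains, nor in Il2 and Il15ra, and how many of all tested genes separate like this was not counted. The untreated tumors over the same days had log2 fold changes of -1.12, -1.21 and -1.05 for Il21r, Il2rg and Il2rb. Il2 at -1.14 ± 0.45 (adjusted p = 0.063), Il15ra at -0.21 ± 0.08, Il15 at 0.17 ± 0.10 and Il7 at -0.05 ± 0.13 did not pass.

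Levels were next set beside the T cell content of the same library, as log2 of a gene's CPM over the geometric mean CPM of Cd3d, Cd3e, Cd3g and Cd247. For Il21r this ratio was 1.34 ± 0.12 at d6 (SD, n = 3), 0.23 ± 0.19 in untreated d10 (n = 5), 0.17 ± 0.13 in untreated d14, 0.22 ± 0.12 in treated d10 and 0.50 ± 0.08 in treated d14 tumors. For Il2rb it was 2.49 ± 0.09, 1.83 ± 0.33, 1.86 ± 0.06, 2.40 ± 0.13 and 1.92 ± 0.11 in the same order, and for Il2rg 3.08 ± 0.12, 0.78 ± 0.44, 0.66 ± 0.18, 0.37 ± 0.07 and 0.55 ± 0.03. Within untreated d10 tumors the ratio was 1.60 ± 0.09 for Il2rb and 1.10 ± 0.05 for Il2rg in replicates 1 to 3, and 2.03 to 2.30 for Il2rb and 0.25 to 0.36 for Il2rg in replicates 4 and 5, which lay beside the treated d10 libraries. Il21r, at 0.24 ± 0.16 in replicates 1 to 3 and -0.01 and 0.43 in replicates 4 and 5, showed no such split. For Il2rb and Il2rg, treated and untreated d14 libraries did not overlap in CPM and overlapped in this ratio. For Il21r the treated d14 libraries, at 0.42 to 0.56, lay above the untreated d14 libraries, at 0.02 to 0.25. The part of T cell content in these differences was not tested, and no such ratio was made to markers of other cell types. Il15ra per T cell marker was highest at d6, at 2.30 ± 0.27, and stood at 0.96 ± 0.32 in untreated d14 and -0.04 ± 0.05 in treated d14 tumors. All of these chains are expressed by cells other than T cells too, and the ratios carry no test.

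**Figure D4:**
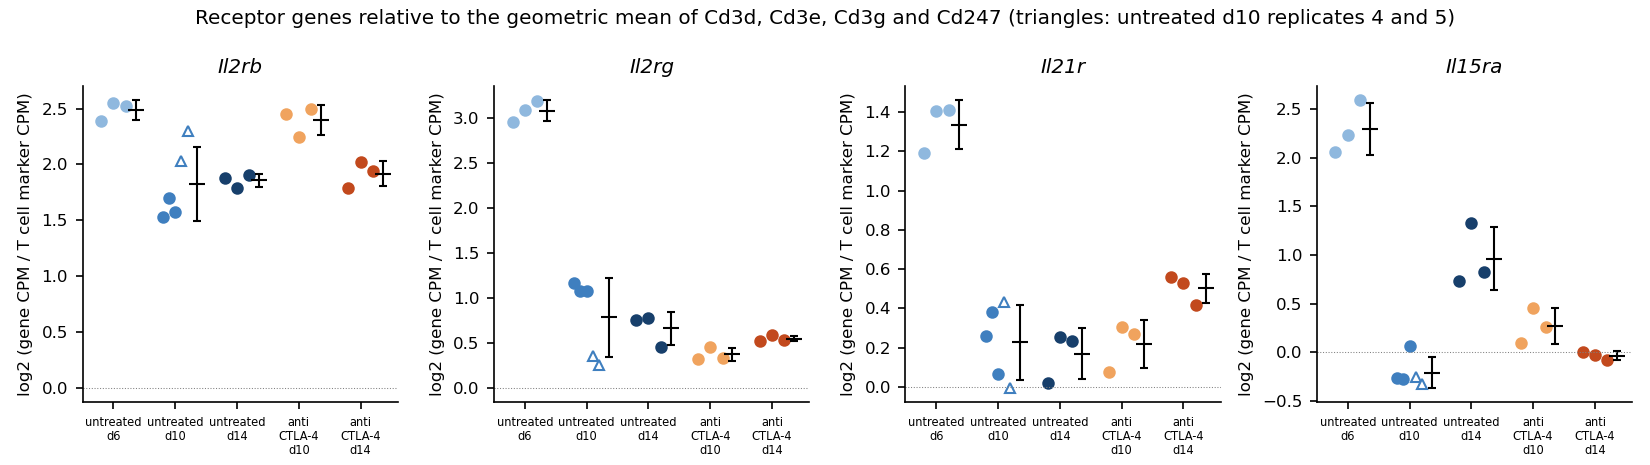
Log2 ratio of Il2rb, Il2rg, Il21r and Il15ra CPM to the geometric mean CPM of 4 T cell markers in each library, by group, with mean and SD; triangles are untreated d10 replicates 4 and 5. The d6 libraries are highest for Il2rg, Il21r and Il15ra, and treated and untreated d14 libraries overlap for Il2rb and Il2rg but not for Il21r.

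The other 24 genes of the pathway, in 5 lists, were counted the same way. Their share called was 13.0% from d6 to d10, 8.70% from d10 to d14 and 18.2% from d6 to d14 in untreated tumors, beside 7.45%, 7.23% and 19.0% of all tested genes. It was 13.6% for treated against untreated d14 tumors, 13.0% for treated d14 against untreated d10 tumors, 9.09% for treated d14 against d10 tumors and 13.0% for the interaction, beside 11.5%, 7.83%, 11.5% and 11.8% of all. With 22 or 23 genes tested, nothing is read from these shares about the pathway. From d6 to d10, 1 of 23 tested was called higher and 2 lower: Il7r, the IL-7 receptor alpha chain, rose by 2.23 ± 0.19 (log2, adjusted p = 0.00016), and the cytokines Il4 and Il21 fell by 1.86 ± 0.33 and 2.02 ± 0.46. From d10 to d14, Il4 fell by 2.11 ± 0.45 and Socs1, a feedback inhibitor of JAK kinases, by 1.16 ± 0.24 (2 of 23). Over d6 to d14, 1 of 22 was called higher, Il7r at 1.92 ± 0.27, and 3 lower, Il4 at -3.97 ± 0.36, Il21 at -2.44 ± 0.56 and Socs1 at -1.63 ± 0.31. The d6 to d10 calls of Il7r, Il4 and Il21 and the d10 to d14 call of Socs1 were made with untreated d10 replicates 1 to 3 and with replicates 4 and 5 alike, and replicates 4 and 5 added Il9r at 2.32 from d6 to d10. Il4 did not pass the filter on low counts in the other tests that used replicates 4 and 5 alone. Il4 and Il21 had few reads, with 1 to 36 and 3 to 41 counts per library.

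In treated d14 tumors against untreated d14 tumors 3 of 22 tested pathway genes were called higher and none lower. Il2ra, the alpha chain of the IL-2 receptor, rose from 14.6 ± 2.12 to 39.7 ± 1.98 CPM (n = 3 each), a log2 fold change of 1.51 ± 0.12 (adjusted p = 0.0029, edgeR). Il7r rose from 24.7 ± 9.23 to 63.1 ± 6.80 CPM, by 1.41 ± 0.26 (adjusted p = 0.0085), and Il21, the ligand of Il21r, from 0.0769 ± 0.0635 to 0.360 ± 0.0902 CPM, by 2.34 ± 0.53 (adjusted p = 0.016). The ligand and its receptor were thus both called higher in this comparison. Another 7 pathway genes passed the p threshold upward at under 2-fold, and were named after their values were seen. They ran from Cish, a STAT5 target and feedback gene, at 0.93 (adjusted p = 0.0050) through Il4ra at 0.78, Socs3 at 0.70, Jak3 at 0.56, Mcl1 at 0.46 and Bcl2 at 0.45 to Pim1 at 0.41 (adjusted p = 0.026). The share of all tested genes past that p threshold alone was not counted, so nothing is read from this number about the pathway. By edgeR and by DESeq2 alike, 0 of 7 genes for JAK kinases and STAT factors and 0 of 6 survival and target genes (Bcl2, Bcl2l1, Mcl1, Pim1, Pim2 and Osm) were called in any of the 8 tests with all libraries. An unadjusted p under 0.05 was given for 0 to 6 of the former and 0 to 4 of the latter, depending on the test.

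**Figure D5:**
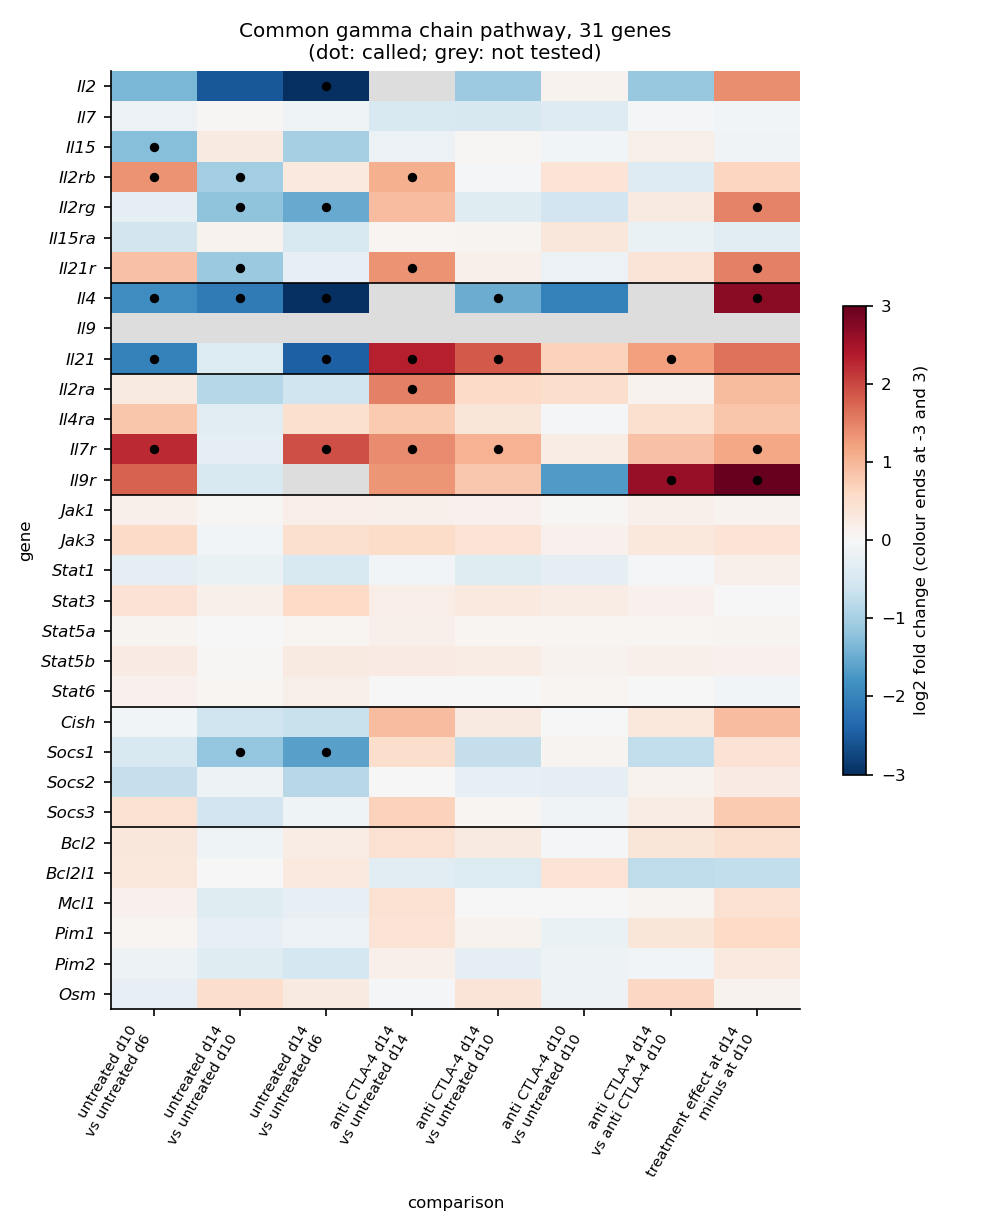
Log2 fold change (colour, ending at -3 and 3) of the 7 members and of 24 other common gamma chain pathway genes in each comparison, with black dots for called genes and grey for genes that were not tested. Calls lie among the cytokines, the receptor chains and Socs1, and none among the JAK and STAT genes or the 6 target genes.

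Treated d14 tumors against untreated d10 tumors had Il7r at 1.05 ± 0.15 and Il21 at 1.84 ± 0.42 called higher and Il4 at -1.49 ± 0.43 called lower (3 of 23). Within treated tumors, d14 against d10, Il21 at 1.22 ± 0.34 and Il9r, the IL-9 receptor chain, at 2.60 ± 0.44 were called higher (2 of 22), Il9r on 3 to 11 counts at d10 and 42 to 63 counts at d14. In the interaction contrast Il7r at 1.17 ± 0.33, Il9r at 3.05 ± 0.84 and Il4 at 2.71 ± 0.79 were called (3 of 23). Of these, Il7r was not called with untreated d10 replicates 4 and 5, at 1.05 (adjusted p = 0.058), and replicates 1 to 3 added Il2ra at 1.10 and Bcl2l1, an inhibitor of apoptosis, at -1.16. Against untreated d10 replicates 1 to 3 treated d14 tumors had Il9r at 1.41 called and Il7r at 0.98 not called. At d10, treated against untreated, edgeR and DESeq2 each called 0 of 23, with 4 at an unadjusted p under 0.05, and with untreated d10 replicates 1 to 3 Il4 was called at -2.29 (adjusted p = 0.015). Il9 had at most 1 count in any library and was not tested.

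Across the 17 libraries, the genes whose log2(CPM + 1) resembled each member most were listed by Pearson correlation among 12378 protein-coding genes, as a description in which libraries share groups and sets. Il21r resembled Vsir (r = 0.983), which encodes the checkpoint VISTA, Slc11a1 (0.980), a metal transporter of macrophages, and Rinl (0.980). Il2rb resembled Abcb9 (0.969), Zap70 (0.968), the kinase of the T cell receptor, and Tm4sf19 (0.961). Il2rg resembled Stx11 (0.978), Lcp2 (0.973), an adaptor of immune receptors, and Aif1 (0.970), a macrophage protein. Il15 resembled Oas1c (0.981), a member of the interferon-induced OAS family, Trim30c (0.968) and Ppm1k (0.967). The likeness was weaker for Il7, with Ddx1 (0.925), Scoc (0.920) and Acsl3 (0.908), and for Il15ra, with Atf3 (0.843), Trafd1 (0.842) and Zcchc2 (0.837). Il2 was under the level of 1 CPM set for this list.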

How the data were processed

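The deposited values are counts per gene, whole numbers without normalization. The authors prepared the libraries with the KAPA RNA HyperPrep kit, aligned paired reads of 2 lengths, from 2 instruments, to GRCm38 with TopHat2 2.0.14, and took the uniquely mapped ones into HTSeq counts over Gencode vM21 genes. Which instrument gave which library, and whether counting used strand, is not given in the sources used here. Groups and replicate numbers came from the sample labels.

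The edgeR 4.0.16 quasi-likelihood test (R 4.3.3, filterByExpr, TMM) was fitted to all genes with the 2 groups compared, and to 4 groups for the interaction, with Benjamini-Hochberg adjustment. Called genes had an adjusted p below 0.05 and a fold above 2. The SE of a fold change was derived from its F statistic, as |log2 fold change| over √F. Each library is 1 mouse, and across 22 replicate pairs the chi-square statistic per gene was 20.3 to 295, so none was a repeat of another. The fit was tested on simulated counts. Alternatives were DESeq2 1.42.0, no TMM factors, 2 count filters, 1 fit of all groups, thinned counts, protein-coding genes, left-out libraries and a replicate block. The members, gene lists and motifs were chosen with earlier results of these data known. Named genes were the 7 members, pathway genes called at least once and the 3 genes most like each member, while the 7 pathway genes given at under 2-fold for d14 were named after their values were seen. T cell, regulatory T cell, NK cell, macrophage, mesothelial, pancreas acinar and type I interferon lists were read by count and summed level. Promoter windows from RefSeq were found for Il2, Il2rg, Il21r and Il15ra, and Il7, Il15 and Il2rb were not matched.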

Additional observations from a re-analysis of the deposited data

Results flagged for a closer look

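The difference between treated and untreated tumors was not the same at d10 and d14 for 2 members, by edgeR's test of the interaction. For Il21r the log2 fold change between treated and untreated tumors exceeded that at d10 by 1.504 (adjusted p = 0.0043): it was 1.35 at d14 and -0.17 at d10. For Il2rg the excess was 1.484 (adjusted p = 0.0049), with 0.91 at d14 and -0.58 at d10. Against untreated d10 replicates 4 and 5, of the treated d10 library set, Il2rg had -0.16 at d10, and its excess was 1.07. With treated d14 replicate 2 as the only treated d14 library, and all untreated d10 libraries, the excess was 1.54 for Il21r and 1.53 for Il2rg. That fit takes the spread of this arm from the other groups. All 3 treated d14 libraries lay above all 3 untreated d14 libraries in both genes, which by itself does not bear on the difference from d10. Il7 and Il15, not called in the interaction, also separated at d14, with the treated libraries lower. In the untreated d10 group of 5, none of 7 members had a library apart from the others by Dixon's criterion, which chance alone would meet in about 1 of 20 groups. The criterion looks for 1 library at a time and cannot see a pair that stands apart together, as replicates 4 and 5 do in Il2rb and Il2rg.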

How the results depend on the processing

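Over 55 member values and 960 alternatives, 898 kept their direction and side of the threshold, 19 passed it anew, 16 lost it and 27 changed sign, none of these 27 past the threshold. Untreated d14 tumors number 3, so that 1 library, replicate 2, decided several calls. The numbers of called members were mostly within 1.5 times of the reported ones (134 of 141 alternatives). Leaving out 1 library each gave 1 to 2 called members for d10 against d6 (1 without d6 replicate 3), 0 to 3 for untreated d14 against d10 (0 without d14 replicate 2) and 1 to 3 for treated against untreated d14 (1 without untreated d14 replicate 2). With treated d14 replicate 2 as the only treated library, an alternative chosen after seeing the data, that last count was 0. A minimum of 10 counts in every library removed Il2 and left 1 for d14 against d6. For treated d14 against untreated d10, untreated d10 replicates 1 to 3 alone gave 1, Il2, instead of 0, both without and with the replicate block.

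Changes of sign, the cause of which was not tested, were these. Untreated d14 against d10: Il7 at -0.094 with the replicate block, -0.091 with d10 replicates 1 to 3 and -0.052 to 0.11 over left-out libraries, and Il15ra at -0.0098 to 0.16. Treated against untreated d14: Il15ra at -0.033 to 0.19 over left-out libraries. Treated d14 against untreated d10: Il2rb at 0.10 without TMM, 0.031 with protein-coding genes, 0.30 with the replicate block, 0.29 with d10 replicates 1 to 3, 0.075 with treated d14 replicate 2 only and -0.16 to 0.090 over left-out libraries, Il15 at -0.0036 to 0.095, and with d10 replicates 4 and 5 Il2 at 0.64 and Il2rg at 0.071. Treated against untreated d10: Il2 at -0.013 when thinned, -0.48 with the replicate block, -0.48 with d10 replicates 1 to 3 and -0.18 to 0.40 over left-out libraries. Treated d14 against d10: Il7 at 0.065 without TMM and -0.10 to 3.4e-05 over left-out libraries. Interaction: Il2 at -0.30 with d10 replicates 4 and 5 and Il7 at 0.051 with replicates 1 to 3.

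Leaving out TMM moved the median of all genes by 0.15 for treated d14 against untreated d10 and by 0.12 for treated d14 against d10. Same-numbered libraries do not pair: correlations of their deviations ran from -0.31 to 0.20. Fits with the replicate block leave out untreated d10 replicates 4 and 5, which have no partner. They gave Il2rb -0.75 (not called) and Il2 -3.17 (called) in untreated d14 against d10 and Il2 -1.70 (called) in treated d14 against untreated d10, and the same libraries without the block gave -0.71, -3.10 and -1.66 with the same calls. The Il2rb call in untreated d14 against d10 was also lost without TMM (-0.97) and with protein-coding genes only (-0.99). No blocked fit was made for the interaction.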

Other observations

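Ratios within a library, which no scaling between libraries can move, were computed for 2 further pairs, with no test. The log2 ratio of Il21r to Il2rg CPM was -1.74 ± 0.06 at d6 (SD, n = 3), -0.56 ± 0.46 in untreated d10 (n = 5), -0.49 ± 0.26 in untreated d14, -0.16 ± 0.09 in treated d10 and -0.05 ± 0.08 in treated d14 tumors (n = 3 each). Every treated d14 library, at -0.12 to 0.03, lay above every untreated d14 library, at -0.73 to -0.22. The log2 ratio of Il15 to its presenting chain Il15ra was -1.19 ± 0.32 at d6, -1.85 ± 0.06 in untreated d10, -1.68 ± 0.18 in untreated d14, -2.28 ± 0.04 in treated d10 and -1.90 ± 0.18 in treated d14 tumors. The 3 treated d10 libraries, at -2.31 to -2.23, lay below all 14 others, including untreated d10 replicates 4 and 5, at -1.93 and -1.89. The regulatory T cell markers (4 genes) summed to 13.75 to 17 CPM in treated d14 tumors and to 6.31 to 10.6 CPM in untreated d14 tumors. They summed to 14.3 to 15.9 CPM at d6, 10.6 to 12.7 CPM in untreated d10 and 8.45 to 11.9 CPM in treated d10 tumors. The treated d14 range thus overlapped with that of d6, where 1 gene of the list, Ctla4, was at 0 counts in every library.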
